A study of Drosophila melanogaster with 10 samples.

Results

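The mitochondrial protein import genes examined here are 10 named genes of the TIM and TOM complexes: Tim8, Tim9a, Tim9b, Tim10, Tim13, Tim17b, Tim23, Tom7, Tom20 and Tom40. They were taken by case-sensitive gene symbol from the array annotation, so that the clock gene tim is not among them, and where a gene had several probe sets the one brightest on average across the arrays was to be used. Of the 10 genes, 8 had a probe set that names 1 gene, and each of these had only that probe set. Tim10 was annotated only through a probe set that also names CG42497, and Tim9b was matched to no probe set in the annotation used here. The whole table holds 18952 probe sets, and 11981 genes have one that names them alone.

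Expression was measured in Drosophila SL2 cells, an established line derived from embryos, with 1 array per sample. Cells received 10 µg of double-stranded RNA (dsRNA) and RNA was taken after 7 days. The dsRNA was directed against GST, which serves as the control, or against MBD-R2, a chromatin protein of the NSL complex, which was targeted by either of 2 constructs, M1 and M2. There were 3 arrays for GST, 3 for M1 and 3 for M2, and 1 for cells without dsRNA. The M2 array of replicate 3 carries M3 in its title but M2 in its source name and description, and was grouped with M2. The transcript of MBD-R2 itself was not analysed here, so "knockdown" names the treatment and not a measured depletion.

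Nearly all mitochondrial proteins are made in the cytosol and imported. Tom20 is a receptor of the outer membrane, Tom40 forms its channel and Tom7 is a small subunit of the same complex. Tim23 and Tim17 proteins form the inner membrane translocase for precursors with a presequence. Small TIM proteins act in the space between the membranes as chaperones, with Tim9 and Tim10 partners in one complex and Tim8 and Tim13 partners in another, roles worked out mainly in yeast. They escort hydrophobic precursors such as the metabolite carriers.

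All values below are log2 expression values made by the submitters with GCRMA, and a difference of 1 is a 2-fold change. The lowest value in the table was 2.22, and each array had 50.6% to 53.2% of its probe sets no more than 0.1 above it. All 9 hemocyte-like marker genes, the type SL2 cells resemble, reached the mean log2 level of 4 used as the filter for tests. So did 2 of the 4 neuron markers measured, with elav at 5.84 to 7.25 and brp at 6.06 to 6.30 in the GST arrays. Of the 3 muscle, 3 germline and 2 fat body markers measured 0 did. The germline marker bam was at 2.25 in the GST arrays and at 4.51 and 4.54 in replicate 3 of M1 and M2. Spike-in controls had a median between 10.18 and 13.12 per array, with GST replicate 2 the highest. M1 replicate 1 was next, at 12.33, and the other arrays had at most 11.33. Replicate 3 arrays stood apart from replicates 1 and 2 in their deviations from the group means. Values within each set are given beside the results they touch. The design text calls the replicates biological, and what the numbers share beyond that is not stated.

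Tim9a, a small TIM gene, had the largest difference between knockdown and GST arrays among the 7 import genes tested. In such bulk samples fewer cells with a transcript and less of it per cell cannot be told apart. Its log2 levels were 9.63, 10.73 and 10.67 in the GST arrays, 9.32, 8.92 and 9.67 with M1, 9.03, 8.77 and 9.53 with M2, and 10.76 without dsRNA. GST replicate 1 was low among the controls, and M1 replicate 3 lay just above it. The other 5 knockdown arrays lay below all 3 GST arrays.

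Tim9a fell by 1.14 ± 0.31 on the log2 scale (SE, 6 arrays against 3, limma adjusted p = 0.0273), or 2.2-fold, from 10.35 ± 0.62 (SD, n = 3) with GST to 9.30 ± 0.38 with M1 and 9.11 ± 0.39 with M2. Taken alone, M2 gave -1.24 ± 0.35 (adjusted p = 0.0439) and M1 gave -1.04 ± 0.35 (adjusted p = 0.0752). The call for M2 alone was lost in 13 of 24 alternatives, among them median centring (adjusted p = 0.0633) and no filter on low values (0.165). The direct test of M2 against M1 gave -0.19 with a 95% confidence interval of -1.01 to 0.62 (adjusted p = 1.00). The call of the combined comparison was lost in 6 of 10 fits that left out 1 array: its adjusted p was 0.111 when the second GST array was dropped and 0.103 when the third was, 0.0524 and 0.0571 on dropping the first or second M1 array, and 0.0578 and 0.0585 on dropping the first or second M2 array. Over all 10 such fits the log2 fold change stayed between -1.50 and -0.95.

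Each knockdown array also had less Tim9a signal than the GST array with its replicate number. Here and below, M1 and M2 of a number are set against the same GST array, so these differences are not independent. The share of all probe sets with differences of 1 sign was not computed. The smallest such difference was -0.31, for M1 in replicate 1, and the largest was -1.96, for M2 in replicate 2. The mean effect was -1.17 within replicates 1 and 2 and -1.07 in replicate 3, which holds 1 GST array, and the difference between these effects did not pass the interaction test (0.10 ± 0.49, adjusted p = 0.922). With the replicate number as a block the adjusted p of Tim9a was 0.00879, and M1 alone passed as well (0.0252). Without the filter on low values the adjusted p was 0.112. It was 1.00 with each array centred on its spike-in controls, and 0.0561 with that centring and GST replicate 2 left out. The nearest neighbour with a tested probe set, Ype, differed by 0.05 ± 0.12 (adjusted p = 0.824).

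Tim10 codes for the partner of Tim9 in the small TIM chaperone. Its only probe set is shared with CG42497, a gene that overlaps it in the RefSeq annotation, so the signal cannot be assigned to either gene. This shared probe set read 11.76, 11.75 and 11.70 with GST, 12.003, 12.01 and 11.80 with M1, 11.84, 11.87 and 11.78 with M2, and 11.55 without dsRNA. All 6 knockdown arrays lay above all 3 GST arrays, as 10.7% of all tested probe sets did. The difference of 0.14 ± 0.11 did not pass limma's test (adjusted p = 0.418).

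Tim8 had log2 levels of 10.27, 10.65 and 10.54 with GST, 10.70, 10.52 and 10.08 with M1, 10.40, 10.43 and 10.19 with M2, and 10.54 without dsRNA. The groups overlapped and the difference was -0.10 ± 0.17 (adjusted p = 0.746, 95% confidence interval -0.50 to 0.30). Its sign depended on the arrays, with 0.05 within replicates 1 and 2 and -0.40 in replicate 3, and it was 0.11 after spike-in centring and 0.07 with array weights. Tim13, the partner of Tim8 in the other small TIM complex, was at the lowest table value in 9 of 10 arrays and was 2.22 to 2 decimals in the tenth as well. It did not reach the filter and was not tested.

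**Figure D1:**
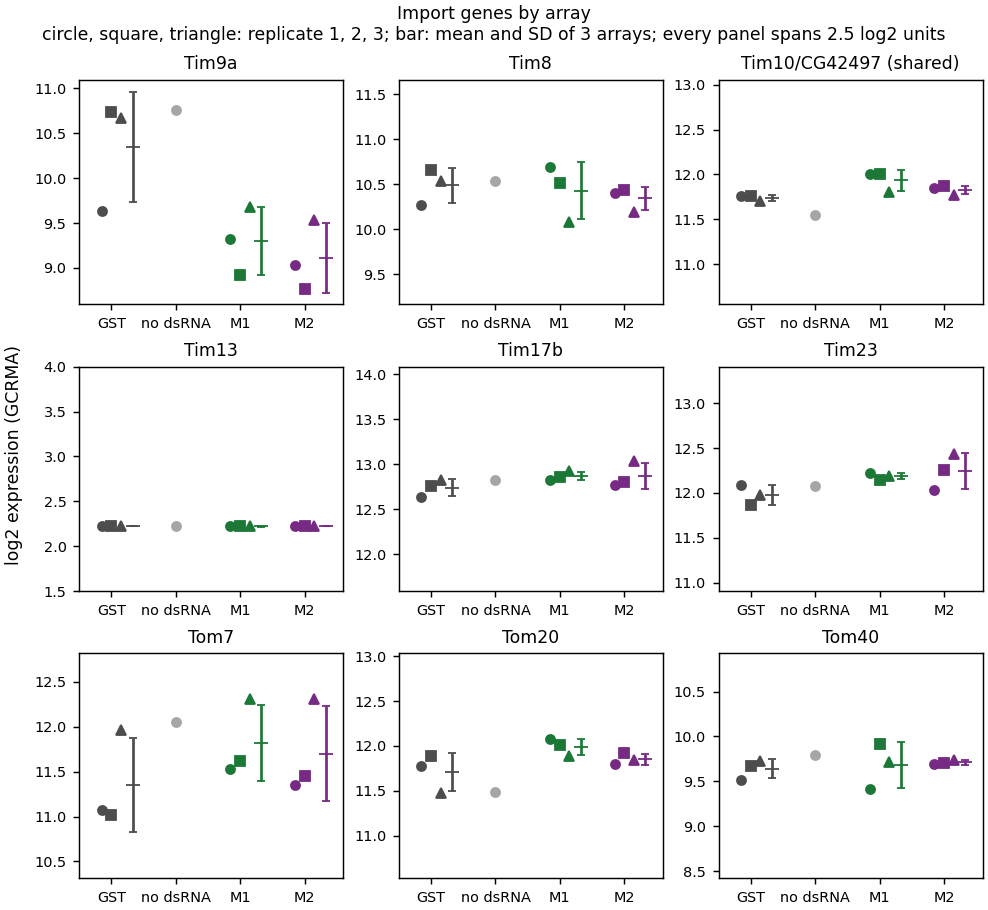
Log2 expression (vertical axis, GCRMA) of the 8 import genes with a probe set of their own and of the probe set shared by Tim10 and CG42497, in each of the 10 arrays. Circles, squares and triangles are replicates 1, 2 and 3, bars are the mean and SD of 3 arrays, and the grey point is the array without dsRNA. In the Tim9a panel 5 of the 6 knockdown arrays lie below all GST arrays, whereas the groups of Tim8 and Tom40 overlap and Tim13 sits at the lowest value of the table, 2.22.

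For the inner membrane translocase genes Tim17b and Tim23 the differences from GST were small and did not pass the test. Tim17b read 12.63, 12.76 and 12.83 with GST, 12.83, 12.86 and 12.92 with M1, 12.77, 12.80 and 13.04 with M2, and 12.82 without dsRNA. The highest GST array lay above M2 replicates 1 and 2, so the groups overlapped. Its difference was 0.13 ± 0.12 (adjusted p = 0.505), with a 95% confidence interval of -0.15 to 0.41. It was positive against the same-numbered GST array in 6 of 6 knockdown arrays, which share 3 GST arrays. Tim23 read 12.09, 11.87 and 11.98 with GST, 12.22, 12.15 and 12.19 with M1, 12.03, 12.26 and 12.44 with M2, and 12.07 without dsRNA. Only M2 replicate 1 lay within the range of the GST arrays. The difference of Tim23 was 0.24 ± 0.13 (adjusted p = 0.242, 95% confidence interval -0.07 to 0.54).

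Of the outer membrane genes, Tom7 had the widest spread. It read 11.08, 11.02 and 11.96 with GST, 11.53, 11.62 and 12.31 with M1, 11.35, 11.45 and 12.31 with M2, and 12.05 without dsRNA. Replicate 3 was the highest array of every group, and the array without dsRNA lay close to GST replicate 3. Without regard to replicate numbers, Tom7 differed by 0.41 ± 0.32 and did not pass (adjusted p = 0.415).

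Within replicate numbers Tom7 was higher in 6 of 6 knockdown arrays, by 0.27 to 0.60. With the replicate number as a block its log2 fold change was 0.41 ± 0.10 (adjusted p = 0.0151), or 1.33-fold, with 0.47 ± 0.11 for M1 (adjusted p = 0.0183) and 0.35 ± 0.11 for M2 (adjusted p = 0.0515). The effect was 0.44 within replicates 1 and 2 and 0.35 in replicate 3. The call of Tom7 was made in the alternatives with either block and with replicates 1 and 2 alone, and in none of the others run. In the blocked fit 18% of all probe sets passed as higher and 25.7% as lower, and of the 7 tested import genes 1 rose (Tom7) and 1 fell (Tim9a).

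Tom20 read 11.78, 11.88 and 11.48 with GST, 12.07, 12.01 and 11.89 with M1, 11.80, 11.92 and 11.84 with M2, and 11.49 without dsRNA. GST replicate 3 and the array without dsRNA were the lowest, and M2 replicates 1 and 3 lay within the range of the GST arrays. The difference of Tom20 was 0.21 ± 0.13 (adjusted p = 0.311), positive against the same-numbered GST array in 6 of 6 cases and 0.12 within replicates 1 and 2 against 0.39 in replicate 3. Gabat overlaps Tom20 in the RefSeq annotation, and its probe set was at the lowest value, 2.22.

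Tom40 read 9.52, 9.67 and 9.73 with GST, 9.41, 9.92 and 9.71 with M1, 9.69, 9.70 and 9.74 with M2, and 9.80 without dsRNA. M1 held both the lowest and the highest of these arrays, and the groups overlapped. The difference was 0.06 ± 0.14 (adjusted p = 0.832, 95% confidence interval -0.27 to 0.38), and without GST replicate 1 or M1 replicate 2 it changed sign, at -0.0034 in both fits.

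**Figure D2:**
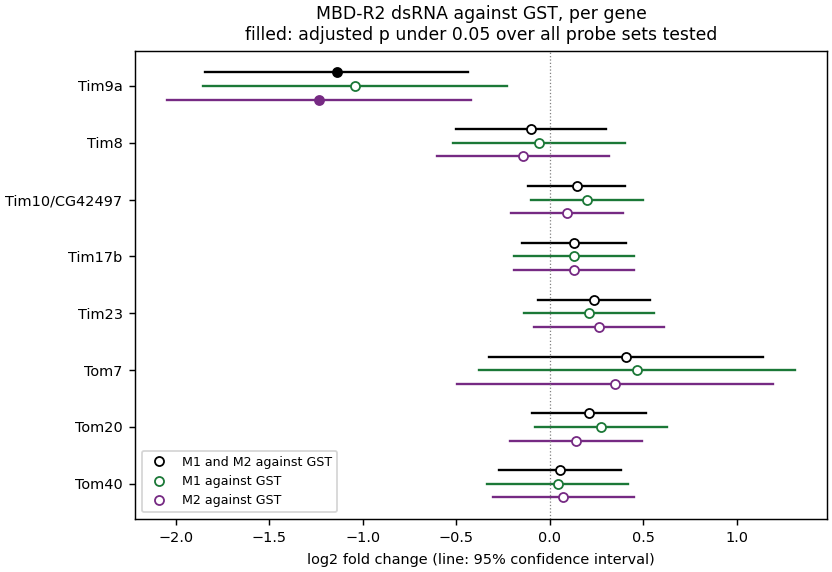
Log2 fold change against GST (horizontal axis) for the 7 tested genes and the probe set shared by Tim10 and CG42497, with both constructs combined in black, M1 in green and M2 in purple. Lines are 95% confidence intervals and filled points passed limma's test over all 7298 probe sets. The filled points belong to Tim9a, at -1.14 combined and -1.24 with M2, and the intervals of all other genes cross 0.

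Of the 8 genes with their own probe set, 7 passed the filter of a mean log2 level of at least 4 and were tested among 7298 probe sets in all. In the combined comparison 1 of these 7 fell and 0 rose, against 17.4% of all tested probe sets that fell and 7.85% that rose. Their median log2 fold change was 0.13, against -0.03 over all probe sets. With M1 alone 0 of 7 fell (14.7% of all probe sets) and 0 rose (5.67%), and with M2 alone 1 fell (13.5%) and 0 rose (5.32%). None of the 7 had all 6 knockdown arrays below all 3 GST arrays, as 21.7% of probe sets did, and none had all 6 above, as 10.7% did. These are descriptions of a short list, and no test was made over it.

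With quantile normalisation, median centring and spike-in centring of all arrays, Tim17b, Tim23, Tom7, Tom20, Tom40 and the shared probe set of Tim10 and CG42497 stayed above 0, while Tim8 was above 0 with the spike-in centring. Centring on the spike-in controls moved the median of all probe sets from -0.03 to 0.18. It moved to -0.65 when GST replicate 2 was left out as well and M1 replicate 1, next highest in spike-in signal, was kept. In the latter fit Tim17b (-0.44), Tim23 (-0.40), Tom7 (-0.34), Tom20 (-0.29), Tom40 (-0.51) and the shared probe set of Tim10 and CG42497 (-0.43) were below 0 together with most other probe sets. Relative to the median of all probe sets they stayed above 0 in that fit, at 0.20 for Tim17b, 0.25 for Tim23, 0.31 for Tom7, 0.36 for Tom20, 0.14 for Tom40 and 0.22 for the shared probe set. On the same relative scale Tim9a was at -0.88, against -1.11 with the deposited values. Of all calls in the combined comparison 68.9% were lower on the deposited scale, 57.8% after quantile normalisation, 62.7% after median centring, 48.9% after spike-in centring (225 calls) and 89.2% without GST replicate 2 as well (1110 calls).

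The 6 tested genes other than Tim9a, with the shared probe set, had log2 fold changes between -0.10 and 0.41 and confidence intervals that together ran from -0.50 to 1.14, the upper end being that of Tom7. In the test of M2 against M1 the 8 probe sets differed by -0.19 to 0.06, with intervals from -1.01 to 0.73, and all had an adjusted p of 1.00. Limma called 0% of all probe sets in this comparison, and 19 had an unadjusted p below 0.05.

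Cells without dsRNA differed from GST at these 8 probe sets by -0.23 (Tom20) to 0.70 (Tom7), with adjusted p values from 0.924 to 0.979. This comparison has 1 array on one side, assumed to vary like the other groups, and limma called 0% of all probe sets, while 68 had an unadjusted p below 0.05. For Tim9a the array without dsRNA, at 10.76, lay beside GST replicates 2 and 3 and not beside GST replicate 1.

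**Figure D3:**
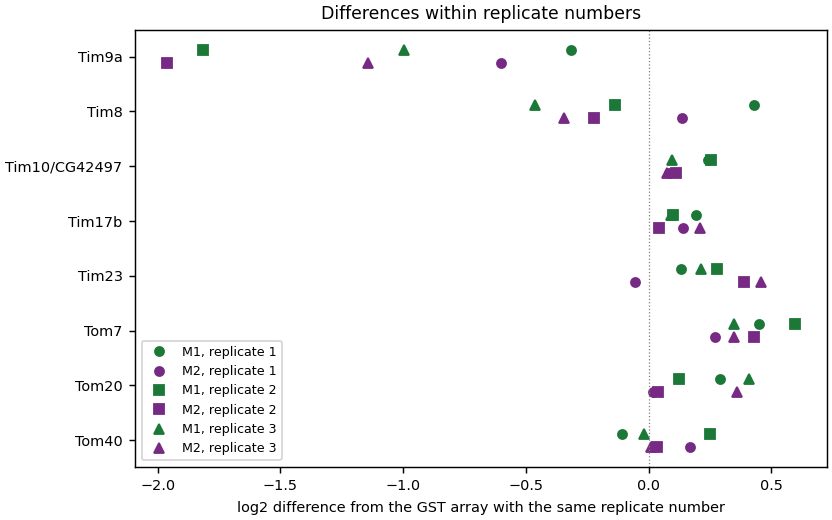
Log2 difference between each knockdown array and the GST array with the same replicate number (horizontal axis), for M1 in green and M2 in purple, with symbols for the replicate number. Tim9a lies below 0 in all 6 differences, and Tim17b, Tom7, Tom20 and the shared probe set of Tim10 and CG42497 lie above 0 in all 6, with Tom7 between 0.27 and 0.60. M1 and M2 of a number share 1 GST array, so the differences are not independent. Values are on the deposited scale.

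The difference in effect between replicate 3 and replicates 1 and 2 did not pass the interaction test for any of the 8 probe sets, while 9.91% of all probe sets passed. The smallest adjusted p of the 8 was that of Tim8 (0.267). Tim8, Tim9a and Tom40 are X-linked, Tim17b lies on 3R, Tim13 and Tom20 on 3L, Tim23 on 2L and Tom7 on 2R. These arms are those of the RefSeq annotation of Release 6.

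Other genes of the import pathway and of proteins it handles were read from 7 lists chosen with earlier results of these data known. Their 48 entries beyond the genes above gave 26 genes that were tested, of which 2 fell (17.4% of all probe sets did), 2 rose (7.85%) and 22 did not pass, with a median log2 fold change of 0.08, against -0.03 over all probe sets. With the replicate number as a block 4 fell and 7 rose, against 25.7% and 18% of all probe sets.

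Paralogs of the import genes did not reach the filter. Tim17b1, Tim17b2, Tim17a1 and Tim17a2 reached at most 2.34 in any array, and with tomboy20, tomboy40, ttm2 and ttm3 all 8 stayed at or below 2.60.

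The outer membrane list includes Tom7, Tom20 and Tom40, and 2 of its 5 tested genes are not among the 10 genes. Of the 5 tested genes 0 passed, against 17.4% of all probe sets that fell and 7.85% that rose. The median of the 5 was 0.21, against -0.03 over all probe sets. Tom70, a receptor for carrier precursors, read 8.57, 8.61 and 8.63 with GST, 9.01, 8.83 and 9.16 with M1, 8.89, 9.005 and 8.94 with M2, and 8.51 without dsRNA. All 6 knockdown arrays lay above all 3 GST arrays, as 10.7% of all tested probe sets did. The difference of 0.37 ± 0.12 missed the threshold (adjusted p = 0.0571) and passed with the replicate number as a block (0.0297). In the blocked fit 18% of all probe sets passed as higher. In the list of the TIM23 channel and its partners 0 of 4 passed (median 0.18), against the same 17.4% and 7.85% of all probe sets. Tim23 and Tim17b are among these 4, and 2 are not among the 10 genes. The entry with the smallest p that is not one of the 10 genes was CG6878, for which RefSeq gives the synonym Romo1, at 0.34 ± 0.14 (adjusted p = 0.11).

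Among the import motor and the matrix chaperones 0 of 5 tested genes passed (median 0.37). Of all probe sets 17.4% fell and 7.85% rose, with a median of -0.03. Hsc70-5, the mitochondrial Hsp70 that drives the motor, read 13.08, 13.00 and 13.33 with GST, 13.36, 13.56 and 13.50 with M1, 13.48, 13.42 and 13.70 with M2, and 13.21 without dsRNA. The knockdown arrays lay above the GST arrays without overlap, as for 10.7% of all tested probe sets. The difference was 0.37 ± 0.14 (adjusted p = 0.0865, and 0.0318 with the replicate number as a block). In the blocked fit Roe1, a nucleotide exchange factor of this chaperone (0.96 ± 0.25), and Hsp60A, the matrix chaperonin (0.43 ± 0.10), passed as higher as well. That fit called 18% of all probe sets as higher. Trap1, a mitochondrial chaperone of the Hsp90 family, had all 6 knockdown arrays below all GST arrays, as 21.7% of all tested probe sets did. Its difference was -0.29 ± 0.14 (adjusted p = 0.192). Trap1 did not pass with the replicate number as a block (0.0706) and passed as lower with replicate 3 against replicates 1 and 2 as a block (0.0453). The differences of blp, a subunit of the motor, were negative in 6 of 6 same-numbered pairs (-0.20 ± 0.15, adjusted p = 0.402). Roe1, Hsp60A, Trap1 and blp were named after their values were seen.

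In the small TIM list, of which every tested gene is one of the 10, 1 of 2 fell, against 17.4% of all probe sets, and these 2 genes are Tim9a and Tim8, with a median of -0.62. The list of oxidation, sorting and insertion factors had 2 tested genes (median 0.27). Of these 1 fell and 1 rose, against 17.4% and 7.85% of all probe sets. Alr, a sulfhydryl oxidase that in yeast and mammals keeps the oxidative import pathway of small TIM proteins running, read 8.68, 8.78 and 8.72 with GST, 10.16, 9.99 and 10.13 with M1, 9.74, 9.82 and 9.88 with M2, and 8.41 without dsRNA. All knockdown arrays lay above all GST arrays, as for 10.7% of all tested probe sets. Alr rose by 1.23 ± 0.11 (adjusted p = 0.00018), or 2.34-fold. OXA1L, an insertase of the inner membrane, read 8.55, 8.48 and 8.74 with GST, 7.64, 7.95 and 8.15 with M1, 8.01, 7.97 and 7.70 with M2, and 8.83 without dsRNA. It fell by 0.69 ± 0.16 (adjusted p = 0.0135), with all knockdown arrays below all GST arrays, as for 21.7% of all tested probe sets.

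Of 6 tested genes in the list of quality control proteases, which also holds the fusion GTPase Opa1, 1 rose and 0 fell (median 0.09), against 7.85% and 17.4% of all probe sets. Spg7, the fly counterpart of the inner membrane protease paraplegin, rose by 0.83 ± 0.20 (adjusted p = 0.0178), from 10.42, 10.49 and 9.62 in the GST arrays to between 10.92 and 11.10 in the 6 knockdown arrays. GST replicate 3 was low, and the effect was 0.59 within replicates 1 and 2 and 1.31 in replicate 3. HtrA2, a protease of the space between the membranes, was below the filter and so outside this count. Its levels were 5.54, 4.83 and 3.99 with GST, between 2.77 and 3.06 in the knockdown arrays and 3.29 without dsRNA. The array without dsRNA thus lay below every GST array, and the knockdown values were near the lowest value of 2.22, so no fold change is given. Without the filter the limma adjusted p of HtrA2 was 0.0172. HtrA2 was named after its values were seen.

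Of 9 tested genes in the carrier list, 1 fell and 0 rose (median 0.06), against 17.4% and 7.85% of all probe sets. The carnitine carrier gene colt read 9.09, 9.08 and 9.41 with GST, 8.74, 8.72 and 8.45 with M1, 8.50, 8.56 and 8.34 with M2, and 9.43 without dsRNA. It fell by 0.64 ± 0.14 (adjusted p = 0.0112), with all knockdown arrays below all GST arrays, as for 21.7% of all tested probe sets. With the replicate number as a block 25.7% of all probe sets passed as lower and 18% as higher. In that fit sesB, an adenine nucleotide carrier, passed as lower (-0.33 ± 0.10) and Ant2, its paralog, as higher (0.54 ± 0.10). ClpP of the protease list passed as lower there (-0.71 ± 0.12). These 3 genes were named after their values were seen, and sesB and Ant2 overlap in the RefSeq annotation, so that their signals may not be separate. With spike-in centring none of Alr, OXA1L, Spg7 and colt passed (limma adjusted p from 0.561 to 1.00), nor with GST replicate 2 left out as well (0.111 to 0.632), and Spg7 had an adjusted p of 0.0583 without the filter. All 4 kept their direction in every alternative run and their call in each fit that left out 1 array.

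**Figure D4:**
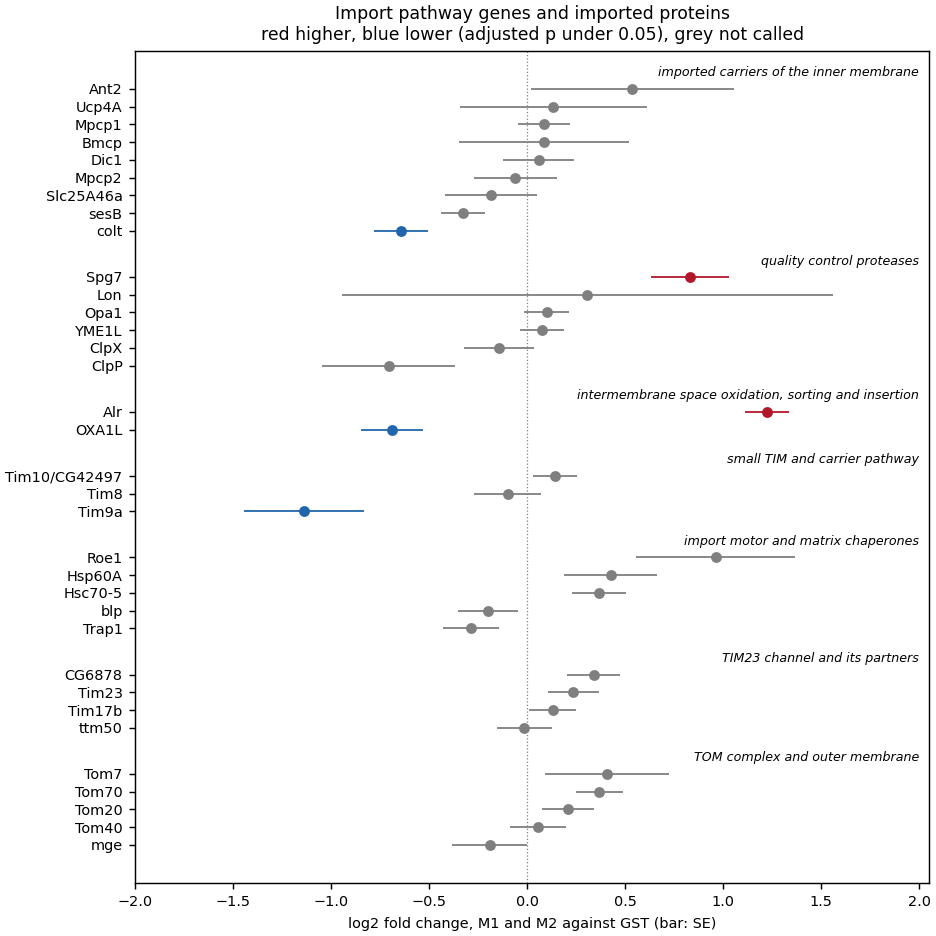
Log2 fold change of M1 and M2 against GST (horizontal axis, bar: SE) for every tested gene of the 7 import lists, Tim and Tom genes included, and for the probe set shared by Tim10 and CG42497. Alr (1.23) and Spg7 (0.83) passed as higher in red, and Tim9a (-1.14), OXA1L (-0.69) and colt (-0.64) as lower in blue, while the outer membrane, TIM23 and motor lists are grey throughout.

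The log2 of the summed signal of the hemocyte-like markers was 17.36 to 17.51 in GST arrays and 16.97 to 17.53 in knockdown arrays. Of the 9 markers 1, NimC1, passed as higher and 0 as lower, against 7.85% and 17.4% of all probe sets. The brightest marker, Nplp2, read 15.99 to 16.30 in all arrays. Pxn was lower in all 6 knockdown arrays than in all GST arrays, as 21.7% of all tested probe sets were (-0.59 ± 0.30, adjusted p = 0.208). The effects on Pxn, Hml and vkg differed between replicate 3 and replicates 1 and 2 by -1.30, -0.99 and -0.93 (interaction adjusted p = 0.00607, 0.00636 and 0.01), with replicate 3 knockdown arrays the lowest for each. The same sum over the 4 measured neuron markers, of which 2 reached the filter, was 7.18 to 7.84 in GST arrays. In knockdown arrays it was 8.19 to 9.33. Of the 2 neuron markers tested 1, brp, passed as higher (1.18 ± 0.14), against 7.85% of all probe sets. The array has 4 probe sets for brp and 2 for Pxn, and only the brightest of each was read here. The highest elav values, 8.80 and 8.85, were those of replicate 3 with M1 and M2, while para reached at most 2.42 and nSyb stayed at 2.22 in all arrays. Their part in the changes of Tim9a, Alr, OXA1L, Spg7 and colt was not tested.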

How the data were processed

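Total RNA of SL2 cells was hybridised to 10 Affymetrix arrays. The deposited log2 values were made by the authors with GCRMA, per the submitters' processing notes, with the version and other steps not given in the sources used here. Samples were grouped by source name. Of 18952 probe sets, 183 controls were left out, 13646 named 1 gene, 402 several and 4721 are unnamed here. Symbols, chromosome arms and overlaps come from RefSeq Release 6, matched for 13543 probe sets.

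Testing was limited to the 7298 probe sets whose mean log2 level reached 4. Tests were run in R 4.3.3 using limma 3.58.1 (lmFit and eBayes on 4 group means, two-sided, Benjamini-Hochberg over all tested, threshold 0.05). The procedure was also run on simulated data with independent arrays, so its error rate with correlated replicates was not checked. Figures were drawn with matplotlib 3.10.9 in Python 3.11.15. The number of arrays limits the precision.

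The members and lists were chosen with earlier results of these data known. All 10 genes are named and, from each of 7 lists, up to 4 called genes by smallest adjusted p, or, failing any call, the gene of lowest p. Entries with no gene or probe set were left out, among them Sam50, which matched only a synonym of another gene. The transcript of MBD-R2 was not analysed here.

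Deviations from the group means correlated at 0.34 to 0.93 in the 9 pairs of arrays with the same replicate number. Replicates 1 and 2 of different groups also correlated (0.55 to 0.75 in 6 pairs), and either with replicate 3 negatively (-0.89 to -0.54 in 12 pairs). The 3 deviations of a group sum to 0, so these correlations are not independent, and the negative ones follow in part from this. Within replicates 1 and 2, GST and knockdown arrays correlated at 0.34 to 0.49 with the same number and at 0.55 to 0.67 crossed. M1 and M2 correlated there at 0.79 and 0.83 with the same number and at 0.70 and 0.75 crossed. The values thus separate replicate 3 from replicates 1 and 2. They do not show that GST and knockdown arrays of replicates 1 and 2 are paired by number, so taking the numbers as pairs is an assumption. Alternatives covered the filter, scaling, variance model, arrays, blocks and threshold.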

Additional observations from a re-analysis of the deposited data

Results flagged for a closer look

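Of the tested genes in the import lists, 2 had a knockdown effect that differed between replicate 3 and replicates 1 and 2. This was limma's interaction test, with 1 GST array in replicate 3, which 9.91% of all probe sets passed. The knockdown effect on Spg7 was 0.724 higher in replicate 3 than in replicates 1 and 2 (log2 scale, adjusted p = 0.0194). The effects were 1.31 in replicate 3 and 0.59 in replicates 1 and 2. The effect on Roe1 was 1.17 higher in replicate 3 (adjusted p = 0.0437), at 1.74 against 0.57. These are differences between effects and not between levels. All 6 knockdown arrays lay above the same-numbered GST array for both genes. Their GST replicate 3 arrays read 9.62 for Spg7 and 7.84 for Roe1, the lowest of the GST arrays, and the arrays without dsRNA read 9.58 and 8.38. The cause was not tested.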

How the results depend on the processing

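Tim9a stayed lower in all 24 alternatives of the combined comparison (-1.53 to -0.93) and lost its call in 10 of them, with limma adjusted p values from 0.0043 to 1.00. The count of import genes that fell, 1 in the main setting, became 0 without the filter, with either spike-in centring and at an adjusted p under 0.01. For M2 it also became 0 with median centring, with only the groups compared and with replicates 1 and 2 alone. Leaving out 1 array gave 0 to 1 falls for the combined comparison, for M1 and for M2, and 0 to 1 calls over all probe sets for cells without dsRNA, where dropping the filter gave 242. Array weights gave 1 fall for M1. With the replicate block, 3189 probe sets passed in the combined comparison, 2729 with M1 and 2647 with M2, against 1843, 1487 and 1375 without it; 1 import gene then rose in the combined comparison and with M1, where 1 fell, and the block changed no other call among the 7 genes. With replicate 3 against replicates 1 and 2 as a block these counts were 3541, 3078 and 3017, with 1 rise in each and 1 fall for M1. Replicates 1 and 2 alone gave 2838, 2531 and 2291, with 1 rise combined and with M1. Spike-in centring gave 225, 143 and 114, and 1110 combined and 604 for M2 without GST replicate 2. Array weights gave 2341 for M1 and 2555 for M2, and an adjusted p under 0.01 gave 1061, 801 and 709. Spike-in centring without GST replicate 2 turned negative Tim17b (-0.44), Tim23 (-0.40), Tom7 (-0.34, M1 -0.50, M2 -0.18), Tom20 (-0.29), Tom40 (-0.51), the shared probe set of Tim10 and CG42497 (-0.43), Tom70 (-0.21), CG6878 (-0.16) and Hsc70-5 (-0.28), in a fit that moved the median of all probe sets to -0.65; relative to that median the Tim and Tom genes among them stayed positive (0.14 to 0.36). Tim8 turned positive with spike-in centring (0.11), array weights (0.067) and replicates 1 and 2 alone (0.051), and Tom40 ranged from -0.0034 (without GST replicate 1 or M1 replicate 2) to 0.124 when 1 array was left out. The causes were not tested.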
